A study of Homo sapiens with 8 samples.

Results

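The diclofenac response that differs between 2 leukaemia lines was measured as the change in THP-1 minus the change in HL-60, called the line difference here. All 8 arrays of the series entered it, as 4 groups of 2: HL-60 with the solvent DMSO, HL-60 with 100 µM diclofenac, THP-1 with DMSO and THP-1 with 100 µM diclofenac, each for 48 h. HL-60 is a promyelocytic and THP-1 a monocytic line, both established from acute myeloid leukaemia, so each stands for 1 line and not for a subtype. Total RNA was hybridised to Affymetrix human arrays, and 22215 probe sets that are not controls were tested. A gene was represented by 1 probe set, which gave 11963 genes, and 9322 of them were above background on both arrays of at least 1 group. The title of the series asks about apoptosis, differentiation and the AP-1 transcription factors, and the line difference asks where the 2 lines part in their response.

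Diclofenac is an anti-inflammatory drug that blocks the cyclooxygenases, the enzymes that open prostaglandin synthesis. Myeloid leukaemia cells can be pushed by several agents out of division and into programmes of granulocytes or monocytes, which differ in granule proteases, surface receptors and inflammatory genes. JUN and FOS proteins form AP-1, NF-kB drives cytokine genes, and ATF4 drives amino acid synthesis and transport under stress. These programmes are read here through gene lists, each line beside the other.

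The lines are named as labelled, because their markers did not settle the labels. MPO, the myeloperoxidase of promyelocytes, had a normalised signal of 36.1 and 47.1 on the HL-60 DMSO arrays, not above background there, and of 231 and 127 on the THP-1 DMSO arrays. Another granule protein, AZU1, had 1654 and 1499 in HL-60 and 8549 and 9384 in THP-1. The 7 HL-60 markers measured summed to 38510 to 38750 in HL-60 and 55160 to 56220 in THP-1 with DMSO. The 7 THP-1 markers summed to 2117 to 2446 and 3162 to 3606, with HLA-DRA, a class II antigen-presenting chain, at 38.1 and 59.9 against 575 and 478. MEIS1 alone of these had a higher mean in HL-60, with 657 and 633 against 412 and 217. Of the HL-60 markers CTSG alone was higher in HL-60, with 14690 and 14410 against 11880 and 10920. Naming of the arrays therefore rests on the titles, and "THP-1" and "HL-60" below mean the arrays so titled.

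THP-1 DMSO replicate 2 stood apart. Its background, read as the level that 95% of the 27 bacterial controls do not exceed, was 238.63 against 33.23 to 60.2 on the other arrays, and 50.32% of probe sets lay above it against 66.36% to 72.14%. Replicates correlated at 0.898 in THP-1 DMSO and at 0.977 to 0.984 in the other groups. This array enters every line difference with 1 of the 2 THP-1 controls, so values without it stand beside the results. Those values rest on 1 THP-1 control, and their errors, p-values and calls hold no spread between THP-1 controls. Across genes, the line difference with and without THP-1 DMSO replicate 2 correlated at 0.669, a description over genes that share 7 arrays.

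The clearest line difference lay in 1 probe set of MTDH, the gene of metadherin, a membrane-associated protein studied in tumour invasion and NF-kB signalling. In HL-60 it read 3897 and 4356 with DMSO, and 2144 and 2090 with diclofenac. In THP-1 the signal was 860 and 924 in the controls and 1542 and 1743 after treatment. The 2 treatments did not overlap in either line, and the directions were opposite, from a start that was higher in HL-60. Its log2 change in HL-60 was -0.94 and that in THP-1 0.84, a line difference of 1.79 ± 0.15 (SE, n = 2 arrays per group), or 3.45-fold (limma adjusted p = 0.040). Without THP-1 DMSO replicate 2 it was 1.87. The 2 other MTDH probe sets did not share it: their line differences were -0.23 and 0.05, and 1 of these represents the gene.

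Of 22215 probe sets 1 was called with all 8 arrays, that of MTDH, which is 0.0045% of those tested and higher in THP-1, and 0 were called lower. An unadjusted p under 0.05 was reached by 808 in the higher (3.64%) and 737 in the lower direction (3.32%). MTDH was no longer called with a replicate block (limma adjusted p = 0.062), with array weights (0.061), without the intensity trend (0.79) or under median centring (1). Nor was it called when any array other than the THP-1 DMSO pair was left out, with adjusted p-values of 0.20 to 0.53 and 0 probe sets called each time. With replicate 2 as the only THP-1 control, that is without THP-1 DMSO replicate 1, 4036 were called.

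Without THP-1 DMSO replicate 2, 4 probe sets were called (0.018%), and all 4 line differences were above 0. DENND4B, which activates Rab proteins of vesicle traffic, had signals of 2247 and 2479 with DMSO and 2551 and 2562 with diclofenac in HL-60. In THP-1 they were 128 and 304 with DMSO and 1275 and 1338 with diclofenac. Treated THP-1 arrays thus lay well above their controls, and every HL-60 array lay above every THP-1 array. The line difference of DENND4B was 2.93 without the array and 2.32 ± 0.38 with it (limma adjusted p = 0.27). Its THP-1 controls of 128 and 304 lay apart, a spread that the fit without the array does not hold.

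ANXA1, annexin A1, a phospholipid-binding protein of myeloid cells that damps inflammation, had 1820 and 1828 with DMSO and 1999 and 2044 with diclofenac in HL-60. In THP-1 the controls had 679 and 702 and the treated arrays 2082 and 1965. Both THP-1 controls agreed here, and treated THP-1 overlapped the treated HL-60 level. The line difference was 1.40 without replicate 2 and 1.34 ± 0.14 with it (limma adjusted p = 0.071).

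S100P, a calcium-binding protein, was a different case, since it was higher with diclofenac in both lines. It had 7892 and 7824 with DMSO and 11050 and 10720 with diclofenac in HL-60, and 286 and 62 against 994 and 1012 in THP-1. Its line difference was 1.24 without replicate 2 and 1.97 ± 0.56 with it (limma adjusted p = 0.52). The control signal of 62 is that of replicate 2 and was not above its background. MTDH was the other of the 4.

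**Figure D1:**
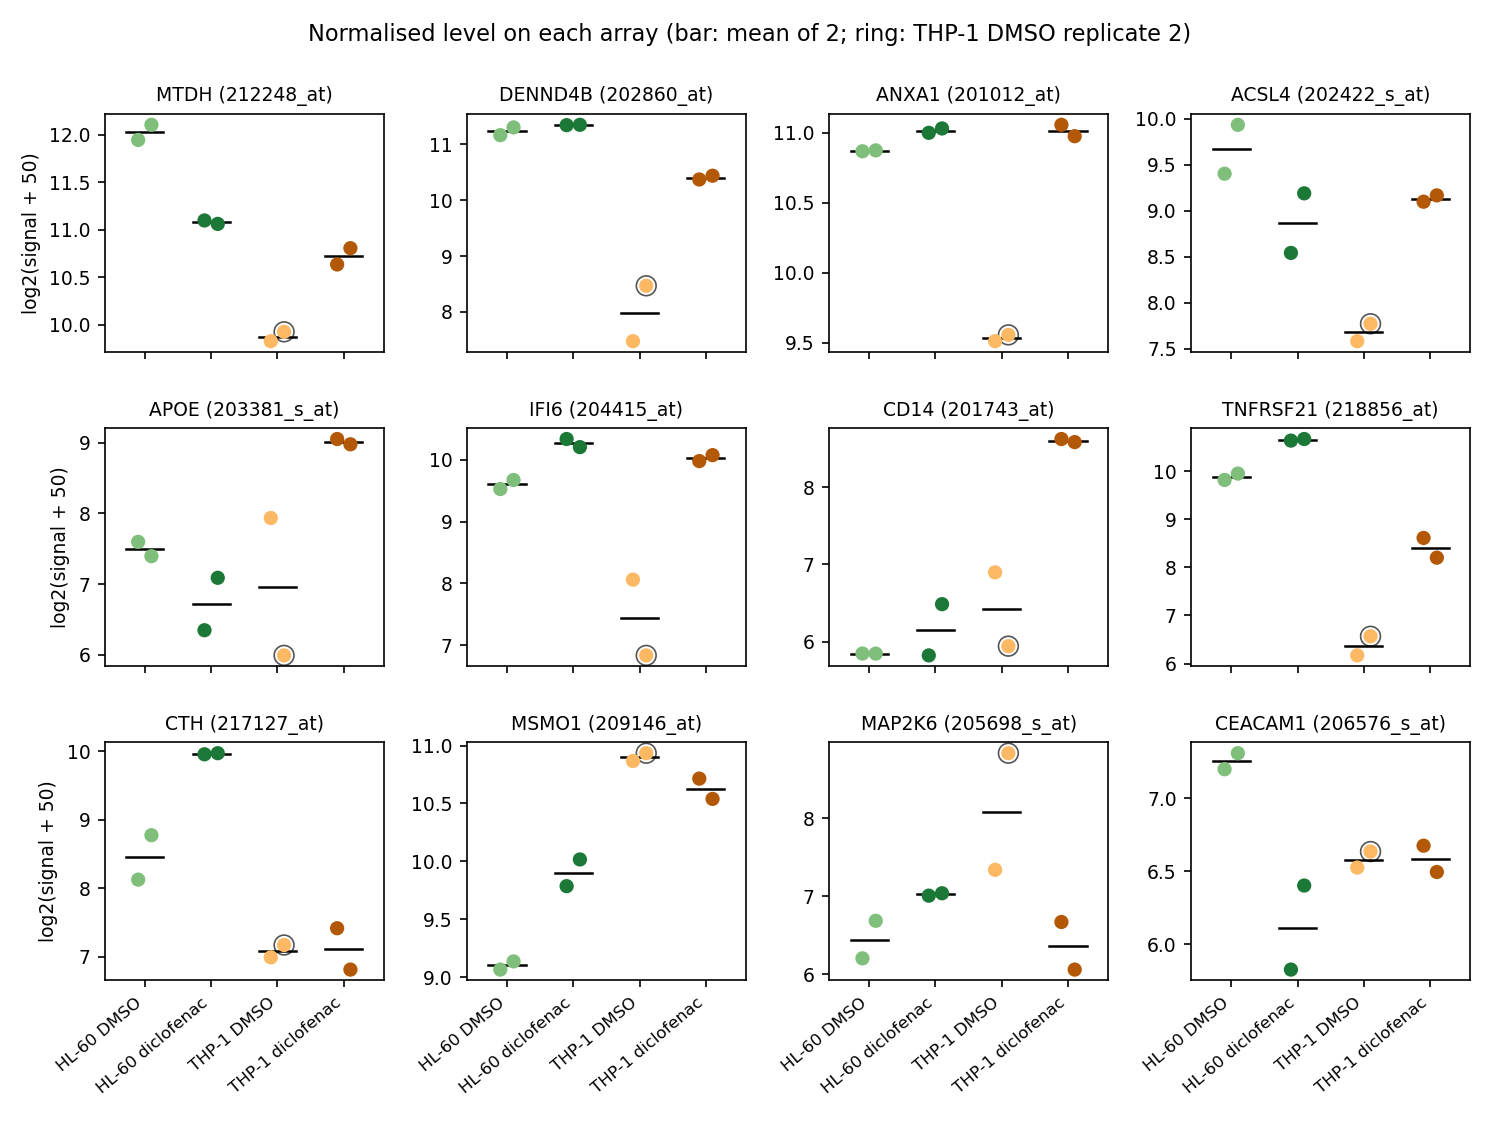
Normalised level, log2(signal + 50), of 12 probe sets on each of the 8 arrays; points are arrays, bars the mean of 2, and the ring marks THP-1 DMSO replicate 2. MTDH goes down in HL-60 and up in THP-1, ANXA1 and DENND4B go up in THP-1 alone to the level near or below that of HL-60, and APOE and MAP2K6 depend on where the ringed array lies.

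Genes were then sorted by how they moved. A gene counted as moved in a line when both diclofenac arrays lay on the same side of both DMSO arrays and the log2 change was at least 0.5, and as not moved when its size was under 0.2. These are descriptive classes of size and separation, not calls of the test. In HL-60, 819 of 9322 genes moved (8.79%), 414 up and 405 down, and in THP-1 1746 (18.7%), 1075 up and 671 down. Leaving out THP-1 DMSO replicate 2 brought the second number to 1256. Across genes above background, the changes of the 2 lines, which share no array, correlated at 0.072 (Pearson) and 0.069 (Spearman), and at 0.002 and -0.011 without that array.

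Opposite movement took 51 genes up in THP-1 and down in HL-60 (0.547%) and 32 the other way (0.343%). With 8.79% of genes moved in HL-60 and 18.7% in THP-1, unrelated movement would also give opposite genes. The counts were not tested against that and are not read as an excess. Movement in THP-1 alone took 541 genes up (5.8%) and 321 down (3.44%), and movement in HL-60 alone 104 up (1.12%) and 106 down (1.14%). Both lines moved up for 80 genes (0.858%) and down for 41 (0.44%). Leaving out THP-1 DMSO replicate 2 gave 65 and 34 opposite genes (0.697% and 0.365%), 366 and 205 in the THP-1 classes (3.93% and 2.2%) and 162 and 166 in the HL-60 classes (1.74% and 1.78%), beside 69 up and 31 down in both lines. Other single arrays moved these numbers too: without HL-60 DMSO replicate 2 there were 162 opposite and 423 HL-60 genes, and without THP-1 DMSO replicate 1 there were 203 opposite, 2395 THP-1 and 122 HL-60 genes. Leaving out HL-60 diclofenac replicate 1 or 2 or THP-1 diclofenac replicate 2 gave 133, 131 and 126 opposite genes. Many genes changed class: 27 and 11 were in the same opposite class both times (0.29% and 0.118%), 215 and 99 in the same THP-1 class (2.31% and 1.06%) and 50 and 45 in the same HL-60 class (0.536% and 0.483%). With an array left out the rule is also looser, since its group then needs only 1 array on the far side. Counts with and without an array are therefore not made alike. Only the genes in the same class both times are described below.

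**Figure D2:**
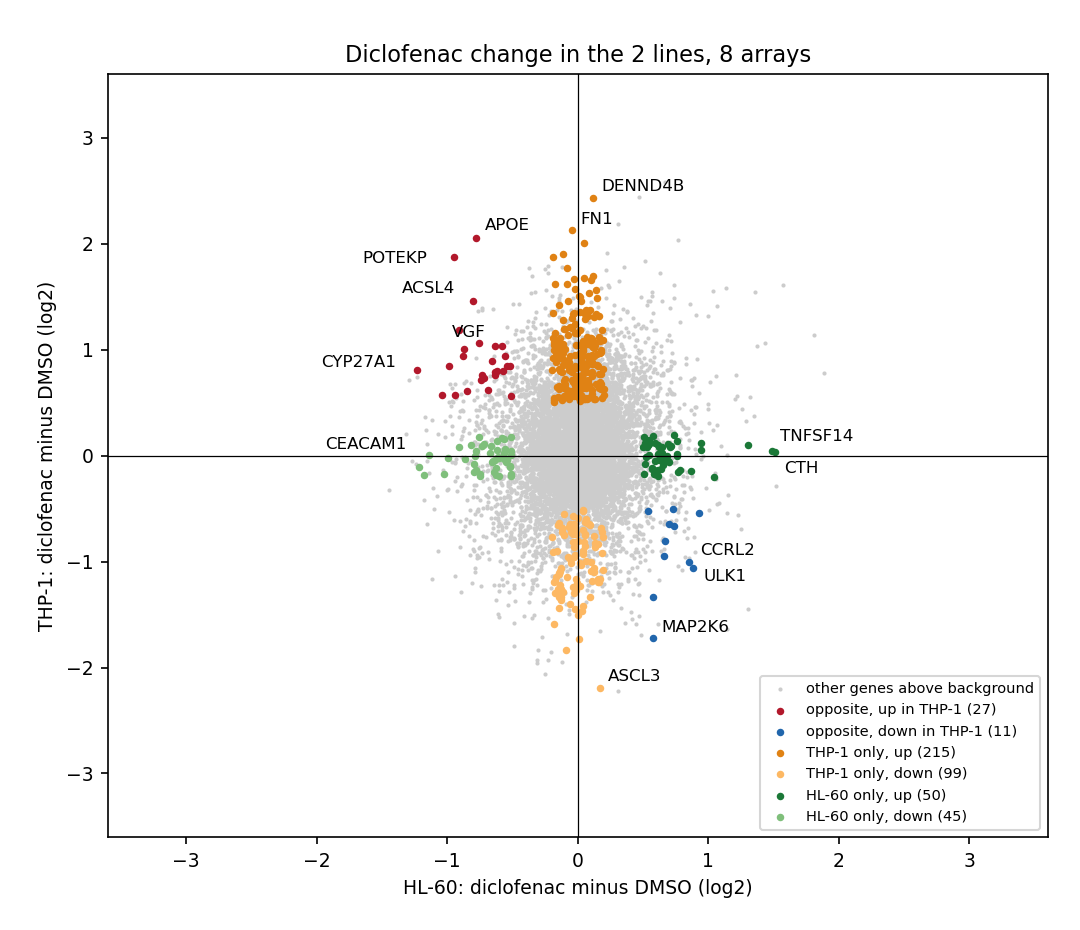
Log2 change with diclofenac in HL-60 (horizontal) and THP-1 (vertical) of the 9322 genes above background, 8 arrays; coloured points are the genes in the same class with and without THP-1 DMSO replicate 2, with their number. The THP-1 arm reaches 2.44 (DENND4B) and the HL-60 arm 1.51 (CTH), and 27 genes lie in the upper left and 11 in the lower right as opposite movers.

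The starting level differed between the lines in most of these classes. The 27 genes up in THP-1 and down in HL-60 had a median log2 level of 8.03 in HL-60 and 6.70 in THP-1 with DMSO, and of 7.01 and 7.52 with diclofenac. The 11 opposite genes of the other direction had 6.47 and 7.88 with DMSO and 7.21 and 6.71 with diclofenac. So both sets began higher in the line where they went down, and their order between the lines was turned by the treatment. The 215 genes up in THP-1 only had 8.23 in HL-60 and 7.33 in THP-1 with DMSO (7.63 on THP-1 DMSO replicate 1), and 8.36 in treated THP-1. The 99 genes down in THP-1 only had 7.26 and 7.83 (7.43 on replicate 1), and 6.66 in treated THP-1. The 50 genes up in HL-60 only had 7.30 in HL-60 and 8.14 in THP-1 with DMSO, whereas the 45 down in HL-60 only had 7.29 and 7.26, close to each other. A starting level is part of the change it is set beside, so this order is a description and was not tested.

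Some genes of a 1-line class had no level in the other line to move from. Of the 215 genes up in THP-1 only, 26 were above background on no HL-60 array, and of the 99 down in THP-1 only 10 were. Of the 50 up and 45 down in HL-60 only, 11 and 9 were above background on no THP-1 array. Among all 9322 genes the numbers were 282 in HL-60 and 152 in THP-1. Few of the opposite movers were bright: 7 of the 27 and 2 of the 11 were above background on all 8 arrays, against 5718 of 9322.

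Where a gene had a second probe set above the same filter, the line differences of both were set side by side. They had the same sign in 43 of 63 genes up in THP-1 only (68.3%), 6 of 17 down in THP-1 only (35.3%), 5 of 13 up in HL-60 only (38.5%) and 3 of 7 down in HL-60 only (42.9%). For the opposite movers this held in 3 of 7 (42.9%) and 1 of 3 (33.3%), and for all genes above background in 1752 of 3069 (57.1%). The genes up in both lines had 13 of 15 (86.7%).

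**Figure D3:**
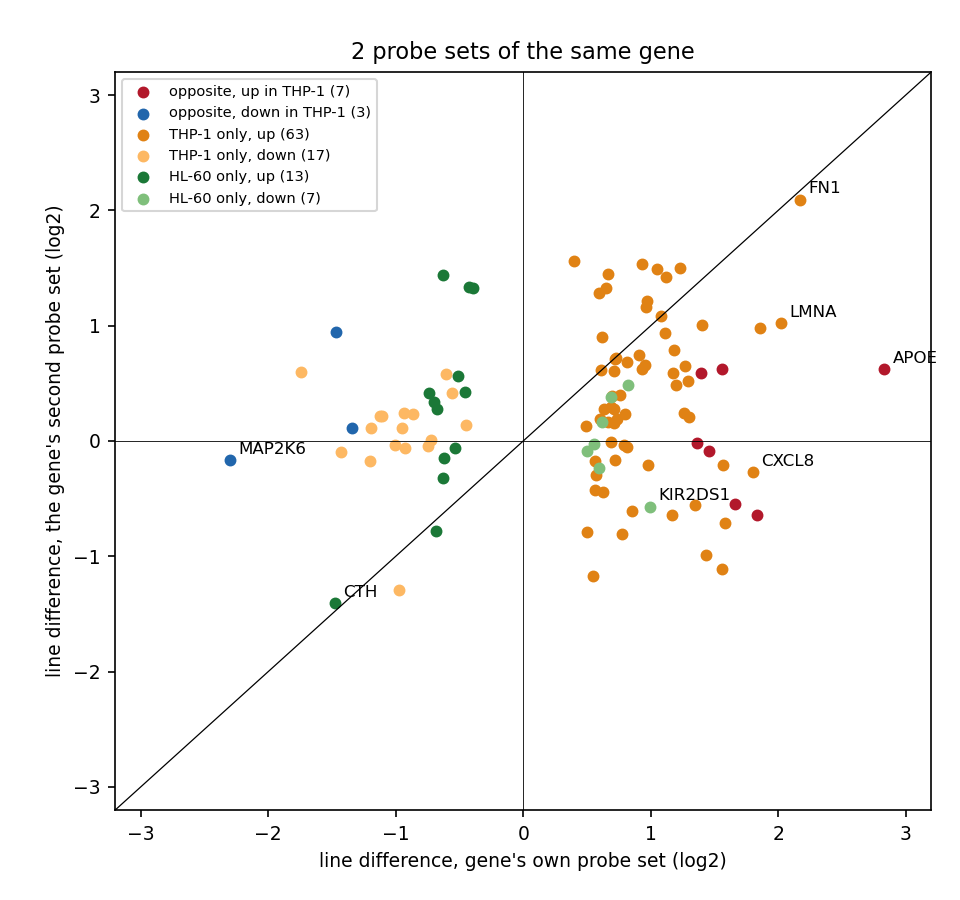
Line difference (log2) of the gene's own probe set against that of its second probe set for the 110 genes of the 1-line and opposite classes that have 1; the diagonal marks equal values. FN1, LMNA and CTH lie on one side of 0 with both probe sets, whereas CXCL8 and many genes down in THP-1 only do not.

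Of the 6 opposite movers named by the size of their difference and higher in treated THP-1, POTEKP and ACSL4 were the brightest. ACSL4 joins long polyunsaturated fatty acids such as arachidonic acid to coenzyme A, which feeds both membrane lipids and prostaglandin synthesis. In HL-60 it had 627 and 928 with DMSO and 323 and 534 with diclofenac, and in THP-1 142 and 168 against 498 and 525. No treated array overlapped its controls, and the treated lines met at a similar level. The log2 changes were -0.80 and 1.46, with a line difference of 2.26 ± 0.39 (limma adjusted p = 0.29), and 2.46 (0.14) without THP-1 DMSO replicate 2.

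POTEKP, an actin-like gene of a family of near-identical copies whose probes may read other actins, had 1064 and 697 against 373 and 476 in HL-60. In THP-1 it had 396 and 116 against 1048 and 856. POTEKP had a line difference of 2.83 ± 0.59 (limma adjusted p = 0.36), and 2.19 without replicate 2. APOE, the lipid carrier of macrophages, had 144 and 118 against 31.3 and 86 in HL-60, and 195 and 13.5 against 481 and 454 in THP-1. The signal of 13.5 is that of replicate 2, and the APOE line difference went from 2.83 ± 0.85 to 1.91 without it. The 2 other APOE probe sets had 0.54 and 0.62, but neither was an opposite mover. The first moved up in both lines, with log2 changes of 0.57 in HL-60 and 1.12 in THP-1. The second had -0.29 and 0.33.

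CYP27A1, a mitochondrial enzyme that oxidises cholesterol, had 127 and 135 against 29.7 and 24.2 in HL-60, and 23.4 and 97.8 against 114 and 154 in THP-1. It was not above background in treated HL-60 or in THP-1 controls, so it was at least 1.72-fold lower in HL-60 and at least 1.42-fold higher in THP-1 with diclofenac. The mannosyltransferase gene POMT2 had a line difference of 2.09 ± 0.74 and the neuropeptide precursor gene VGF, measured by a probe set that may bind several transcripts, one of 1.87 ± 0.64. Both were smaller without replicate 2 (1.46 and 1.42). None of these 5 genes or ACSL4 passed the test, with limma adjusted p-values of 0.29 to 0.64.

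Each of the 6 opposite movers named as lower in treated THP-1 was above background on no array of at least 1 group, so that part of its line difference has only a bound. MAP2K6, a kinase that activates p38, had 23.6 and 52.8 against 78.5 and 81.2 in HL-60, and 112 and 405 against 51.7 and 16.6 in THP-1. Here replicate 2 was the high control, and the line difference of -2.30 ± 0.73 was -1.54 without it. It was not above background in HL-60 controls, so it was at least 1.24-fold higher in treated HL-60. A second MAP2K6 probe set had -0.17, and 0.13 without replicate 2. ULK1, the kinase that starts autophagy, had 129 and 34.4 against 167 and 187 in HL-60, and 65.2 and 140 against 23.7 and 18.2 in THP-1. It was at least 1.44-fold lower in treated THP-1, where it was not above background.

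CCRL2, a chemokine-binding receptor, was at least 1.42-fold higher in treated HL-60, with 23.1 and 42.6 against 114 and 84.8, and had 72.6 and 179 against 47 and 22.4 in THP-1. WDR91, a protein of endosome maturation, had control signals in THP-1 that lay close together, 244 and 288 against 119 and 143. In HL-60 it had 38.6 and 43.3, not above background, against 112 and 78.5, at least 1.38-fold higher. The WDR91 line difference was -1.47 ± 0.49, and -1.40 without replicate 2. APBB1IP, an integrin regulator (-1.91 ± 0.72), was at least 1.17-fold higher in treated HL-60. ID2B, a pseudogene of ID2 whose probes may read its parent (-1.61 ± 0.52), was at least 1.19-fold higher in treated HL-60 and at least 1.38-fold lower in treated THP-1. The limma adjusted p-values of the 6 were 0.54 to 0.65 with all arrays.

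**Figure D4:**
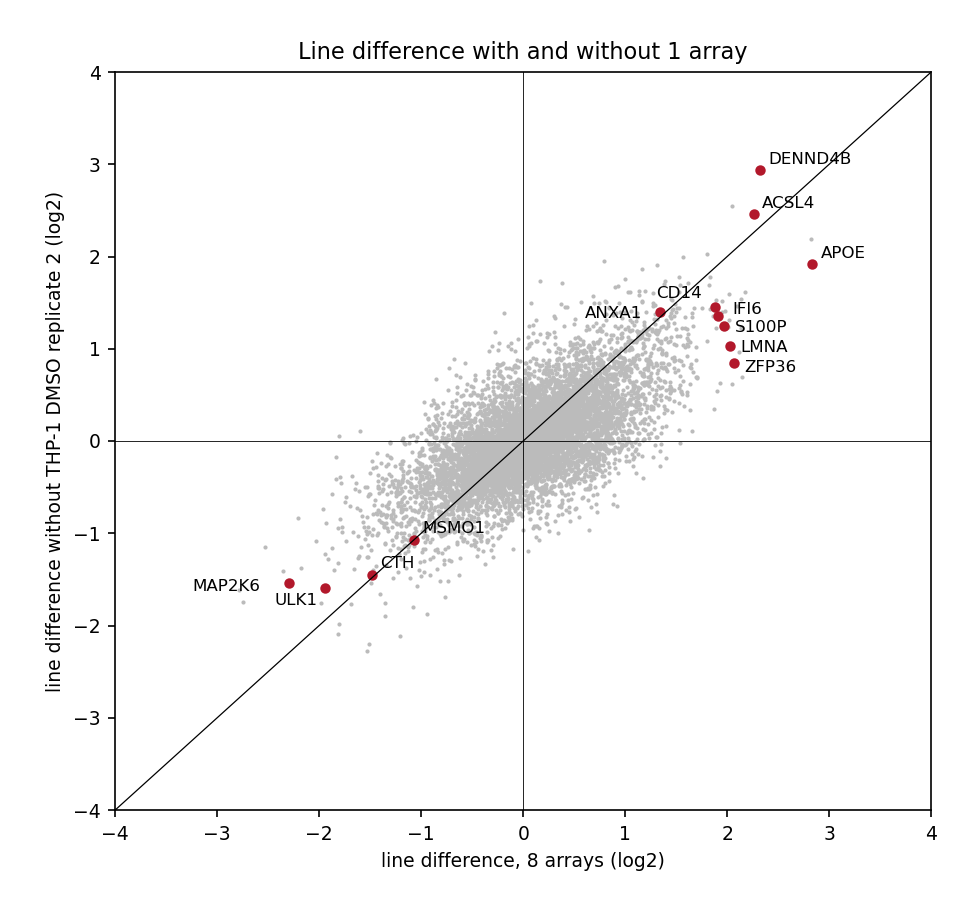
Line difference (log2) of the 9322 genes above background with all 8 arrays (horizontal) and without THP-1 DMSO replicate 2 (vertical); the diagonal marks equal values. DENND4B and ACSL4 lie above the diagonal and ANXA1, CTH and MSMO1 close to it, whereas ZFP36, LMNA and APOE move toward 0 without the array.

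Among genes that moved up in THP-1 only, DENND4B came first. FN1, fibronectin, an adhesive protein made by macrophages, had 146 and 32.2 with DMSO and 432 and 588 with diclofenac in THP-1, and was not above background on any HL-60 array, with 14.4 to 29.7. FN1 had a line difference of 2.17 ± 0.66 (limma adjusted p = 0.54), and 1.62 without replicate 2. All 5 other FN1 probe sets had a line difference above 0, from 0.16 to 2.09. QPCT, glutaminyl cyclase, had the same shape, 146 and 31.1 against 484 and 428 in THP-1 and 4.87 to 8.22 in HL-60, with 1.95 ± 0.62 and 1.40 without replicate 2.

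ZFP36 and ZFP36L1 encode proteins that bind AU-rich messages of cytokines and speed their decay. ZFP36 had 520 and 50.6 with DMSO and 927 and 739 with diclofenac in THP-1, and 503 and 488 against 379 and 485 in HL-60. The line difference of 2.06 ± 0.91 was 0.84 without replicate 2, which read 50.6. ZFP36L1 had 59.8 and 3.62 against 216 and 210 in THP-1, a line difference of 1.86 ± 0.58 and of 1.36 without that array. Of its 3 other probe sets 2 had the opposite sign, but neither was above background on both arrays of any group. The remaining probe set of ZFP36L1 was, in treated THP-1, and had 0.98. LMNA, which encodes the A-type lamins of the nuclear envelope, had 407 and 60.6 against 806 and 781, with 813 and 804 against 677 and 813 in HL-60. Its value was 2.02 ± 0.74, and 1.04 without replicate 2, and its 3 other probe sets had 1.02 to 1.79.

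The 6 genes named as down in THP-1 only had a smaller line difference without replicate 2, the higher of their controls. ASCL3, a transcription factor gene, had 136 and 640 against 12.1 and 49.3 in THP-1, and 87.3 to 123 in HL-60. It was not above background in treated THP-1, at least 3.48-fold lower there with both controls. That bound rests on replicate 2, since without it the log2 change in THP-1 was smaller, -1.24. The ASCL3 line difference was -2.36 ± 0.84, and -1.41 without replicate 2. The desmosome gene DSP (-1.74, and -0.66 without it), the cell death regulator gene PAWR (-1.74 and -0.60), the copper transporter gene ATP7B (-1.50 and -0.58) and PSG1, a pregnancy glycoprotein gene (-1.45 and -0.64), were much smaller without it. Another PAWR probe set above the same filter had a line difference of 0.60. ATP7B was not above background in treated THP-1, at least 2.29-fold lower with both controls. That bound too rests on replicate 2, since without it the ATP7B log2 change in THP-1 was -0.58. NFIX, a transcription factor gene, had 116 and 206 against 27.9 and 21.4 in THP-1, not above background after treatment and at least 2.0-fold lower, and was above background on no HL-60 array. Its fitted line difference was -1.49, and -1.18 without replicate 2.

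HL-60 moved alone most for CTH, cystathionine gamma-lyase, which makes cysteine from methionine and is a target of ATF4. HL-60 controls had 229 and 387 and treated HL-60 had 942 and 953. In THP-1 the controls had 77.1 and 94 and the treated arrays 121 and 62.3. The HL-60 groups were far apart and the THP-1 groups overlapped. The line difference was -1.48 ± 0.47 (limma adjusted p = 0.57) and -1.45 without THP-1 DMSO replicate 2. A second CTH probe set had -1.40, but -0.30 without that array, since its THP-1 controls read 10.0 and 245.

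TNFSF14, a ligand of the tumour necrosis factor family, had 11.8 and 99.5 against 226 and 213 in HL-60, and was not above background on any THP-1 array, with 11 to 26.4. KIAA0319L, the receptor used by adeno-associated viruses, had 39.6 and 78.7 against 214 and 216 in HL-60, and 16.8 to 27.2 in THP-1, also not above background. The alpha-actin gene ACTA1 was at least 1.25-fold higher in treated HL-60, with 13.1 and 13.9 against 81.8 and 79.9. TRMU, which modifies mitochondrial transfer RNA, and DHRS1, a short-chain dehydrogenase, had line differences of -1.02 ± 0.57 and -0.92 ± 0.48.

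Downward in HL-60 alone the members were dim. CEACAM1, an adhesion receptor of granulocytes, had 96.9 and 108 against 6.83 and 34.6 in HL-60 and 40.2 to 52.2 in THP-1. It was at least 1.45-fold lower in treated HL-60. Of its 4 other probe sets 3 had a line difference of the opposite sign, but none of the 4 was above background on both arrays of any group. The proton-sensing receptor gene GPR4 was at least 1.75-fold lower, with 182 and 96.3 against 49.9 and 13, and the actin regulator gene CTTN at least 1.42-fold lower, with 97.4 and 102 against 16.2 and 15.8. All 3 other CTTN probe sets had the opposite sign, but none of them was above background on both arrays of any group. DMBT1, a mucosal scavenger protein, had 0.93 ± 0.50 and KIR2DS1, of the killer cell receptor family with near-identical members, 0.99 ± 0.63. The other KIR2DS1 probe set had -0.57, and without THP-1 DMSO replicate 2 the KIR2DS1 values were 0.79 and 0.33. None of the genes named here from the HL-60 classes passed the test (limma adjusted p of 0.55 to 0.77).

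The gene lists were read by the line difference of their members, beside a median of -0.014 over all 11963 genes, of which 5835 were above 0. No list held a called gene with 8 arrays. Without THP-1 DMSO replicate 2 the neutrophil list held 1 (S100P) and the monocyte list 1 (ANXA1). The lists were chosen with earlier results of these data known, so their counts are descriptions.

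For NF-kB and inflammatory cytokine genes the median line difference was 0.54, and 0.49 without THP-1 DMSO replicate 2. Of 30 members 24 were above 0, and at an unadjusted p under 0.05 8 were higher in THP-1 and 0 were lower. With all 8 arrays 10 moved up in THP-1 only, a class that held 5.8% of genes above background. HL-60 had a median change of 0.01 and THP-1 one of 0.55. IL1B, a fever-inducing cytokine, had 437 and 304 with DMSO and 325 and 328 with diclofenac in HL-60, and 113 and 213 against 506 and 503 in THP-1. The treatments overlapped in HL-60 and were apart in THP-1, with a line difference of 1.57 ± 0.41 (limma adjusted p = 0.47), though a second probe set had -0.21. Without replicate 2 the 2 IL1B probe sets had 2.00 and 0.26.

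CXCL8, the chemokine that draws neutrophils, had 568 and 412 against 399 and 448 in HL-60, and 38.2 and 64.1 against 275 and 244 in THP-1, at least 2.4-fold higher there. Its other probe set was much brighter, with 2741 to 4410 on the 8 arrays, and had a line difference of -0.27. RELB, an NF-kB subunit, had 1.81 ± 0.70, and 1.09 without replicate 2, which read 18 against 147 on replicate 1.

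Immediate early and AP-1 genes, the list closest to the title of the series, had a median of 0.52, and 0.44 without replicate 2, with 27 of 33 members above 0. At an unadjusted p under 0.05, 9 were higher and 1 lower. With all 8 arrays 8 moved up in THP-1 only, against 5.8% of genes above background. HL-60 had a median change of -0.01 and THP-1 one of 0.51. FOS had 165 and 154 with DMSO and 177 and 213 with diclofenac in HL-60, and 114 and 10.6 against 339 and 315 in THP-1. Treated arrays lay above the controls in both lines, further in THP-1, where replicate 2 read 10.6. The FOS line difference was 1.70 ± 0.66 (limma adjusted p = 0.67), and 1.02 without that array. SGK1, a kinase of salt and stress signalling, had 173 and 27.4 against 345 and 453 in THP-1 and 516 and 656 against 414 and 554 in HL-60, with 2.02 ± 0.64 and 1.32 without it.

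Interferon response genes had a median of 0.28, and 0.29 without replicate 2, and 26 of 38 members were above 0, with 7 at an unadjusted p under 0.05 upward and 0 downward. Here both lines had a positive median change, 0.12 in HL-60 and 0.30 in THP-1. IFI6, a mitochondrial protein induced by interferon, had 689 and 768 against 1246 and 1133 in HL-60 and 217 and 64 against 961 and 1031 in THP-1. It moved up in both lines, from a lower start in THP-1, with a line difference of 1.91 ± 0.48 (limma adjusted p = 0.45), and of 1.36 (0.082) without replicate 2. IFIT1, which binds foreign RNA, had 84.2 and 120 against 98.5 and 158 in HL-60, where the treatments overlapped, and 13.3 and 27.7 against 144 and 237 in THP-1, at least 1.84-fold higher. IFITM3, an inhibitor of virus entry measured by a probe set that may bind several transcripts, had 1.89 ± 0.53, and 1.22 without replicate 2.

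The promoters of IFI6 and IFIT1, and of CD14, a monocyte gene described next, are shown because the interferon and monocyte lists both had positive median line differences. Each is the window of 250 bases before the gene's start in RefSeq on GRCh38.p14, 5′ to 3′ on the gene's strand, with capitals at the matches found. In IFI6 and IFIT1 these are GAAANNGAA on either strand, and in CD14 the AP-1 letters TGANTCA. The windows are chr1:27672193-27672442 (minus strand) for IFI6, chr10:89392373-89392622 (plus) for IFIT1 and chr5:140633176-140633425 (minus) for CD14.
IFI6: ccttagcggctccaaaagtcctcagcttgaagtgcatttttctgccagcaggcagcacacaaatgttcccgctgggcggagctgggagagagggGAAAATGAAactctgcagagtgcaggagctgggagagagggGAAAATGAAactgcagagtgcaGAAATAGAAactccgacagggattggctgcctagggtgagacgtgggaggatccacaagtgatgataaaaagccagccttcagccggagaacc
IFIT1: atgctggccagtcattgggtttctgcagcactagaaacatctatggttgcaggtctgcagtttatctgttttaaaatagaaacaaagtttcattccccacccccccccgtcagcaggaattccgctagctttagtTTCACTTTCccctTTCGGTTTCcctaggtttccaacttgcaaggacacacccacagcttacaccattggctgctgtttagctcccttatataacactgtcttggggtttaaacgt
CD14: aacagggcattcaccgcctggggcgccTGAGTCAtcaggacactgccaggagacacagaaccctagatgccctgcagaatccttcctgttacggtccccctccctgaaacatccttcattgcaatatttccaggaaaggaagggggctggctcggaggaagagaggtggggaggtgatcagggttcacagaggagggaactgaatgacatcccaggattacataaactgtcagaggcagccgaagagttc
The IFI6 window holds 3 matches that begin 156, 115 and 93 bases before the start, the IFIT1 window 2 on the opposite strand at 115 and 102, and the CD14 window 1 at 223. GAAANNGAA was found in 25 of 40 promoter windows of 29 interferon genes (62.5%), against 683 of 11322 windows of 7611 genes above background (6.03%). Among genes up in THP-1 only the share was 27 of 294 windows (9.18%), and among the opposite movers up in THP-1 it was 1 of 26 (3.85%). TGANTCA stood in 21 of 294 windows of genes up in THP-1 only (7.14%), in 14 of 133 of those down (10.5%), in 1 of 35 of immediate early genes (2.86%), in 7 of 44 of the monocyte list (15.9%) and in 552 of 11322 overall (4.88%). The NF-kB letters GGNNTTTCC stood in 16 of 34 windows of the NF-kB list (47.1%), 26 of 294 up in THP-1 only (8.84%) and 667 overall (5.89%). A match is a description of letters and not of binding.

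Monocyte and macrophage genes had a median line difference of 0.34, and 0.33 without replicate 2, and 21 of 33 members were above 0, with 9 at an unadjusted p under 0.05 upward and 2 downward. CD14, the lipopolysaccharide co-receptor, had 69.2 and 11.5 with DMSO and 344 and 333 with diclofenac in THP-1, and 6.58 to 39.6 in HL-60, not above background on any array there. Its line difference was 1.88 ± 0.57 (limma adjusted p = 0.54), and 1.46 without replicate 2. ANXA1 belongs to this list. The macrophage receptor gene ADGRE1 went the other way in the lines, with 105 and 140 against 166 and 164 in HL-60 and 106 and 179 against 8.43 and 64.4 in THP-1, and -1.54 ± 0.61. In such bulk RNA, more cells of a type and more RNA per cell cannot be told apart. Markers of T cells, B cells, red cells, epithelium and fibroblasts held 0 called genes, and their summed signals stayed between 149.1 and 848.7 per list and array.

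Granule genes differed little. Primary granule genes had a median line difference of 0.14, with 9 of 14 above 0, and a median change of -0.15 in HL-60 and 0.00 in THP-1. CFD, a complement protease stored in granules, had 670 and 649 against 1087 and 1185 in HL-60 and 2306 and 2264 against 2684 and 2657 in THP-1. It was higher with diclofenac in both lines without overlap, more so in HL-60, with -0.52 ± 0.15 (limma adjusted p = 0.52). The defensin gene DEFA4 had -0.81 ± 0.48, with 440 and 337 against 253 and 232 in THP-1. CEBPE, the transcription factor of granule formation, had 1.19 ± 0.88, which was 0.03 without replicate 2. Neutrophil differentiation genes had a median of -0.05, and 0.14 without that array, so the direction was not settled. LCN2, a granule protein that holds iron carriers, had 1.60 ± 0.57, and 1.06 without replicate 2, and was not above background in treated HL-60, at least 1.39-fold lower there. The oxidase gene CYBB had 1.48 ± 0.63, and 0.91 without replicate 2, while both other CYBB probe sets had the opposite sign.

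Genes of arachidonic acid use, the pathway diclofenac acts on, had a median of 0.51 and of 0.25 without replicate 2, with 15 of 24 above 0. TBXAS1, thromboxane synthase, had 334 and 348 against 270 and 324 in HL-60 and 28.8 and 14.9 against 108 and 112 in THP-1, at least 1.24-fold higher there, with 1.34 ± 0.46. PLA2G4A, the phospholipase that frees arachidonic acid, had 446 and 82.2 against 437 and 426 in THP-1. Its 0.97 ± 0.71 was 0.02 without replicate 2, and that of the prostacyclin synthase gene PTGIS went from -1.05 ± 0.92 to 0.00. Lipid droplet and fatty acid genes had a median of 0.16, and 0.04 without the array. ACSL1, which like ACSL4 activates long fatty acids, had 4498 and 4454 against 4705 and 4705 in HL-60 and 1628 and 1944 against 4277 and 3584 in THP-1. The line difference was 1.05 ± 0.16 (limma adjusted p = 0.19), and a second ACSL1 probe set had 1.49. FABP4, a fatty acid carrier, leaned to HL-60, with 253 and 190 against 1042 and 853 there and 35.7 and 51.4 against 76 and 153 in THP-1, where controls were not above background, and -1.11 ± 0.49.

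For the NRF2 targets and other oxidative stress genes the median was 0.30, and 0.22 without replicate 2, and 18 of 24 were above 0, with 8 at an unadjusted p under 0.05 upward and 0 downward. ABCC1, an exporter of glutathione conjugates and drugs, had 4121 and 3658 against 4175 and 3557 in HL-60 and 2599 and 2841 against 4684 and 4509 in THP-1. Only the THP-1 treatments were apart, and the line difference was 0.76 ± 0.15 (limma adjusted p = 0.32), with 0.40 from a second probe set. GCLC, which starts glutathione synthesis, had 1.23 ± 0.32, and 0.89 without replicate 2. Its other probe set had -0.23, and 0.14 without replicate 2. GSR, glutathione reductase, had 1.08 ± 0.45 and 0.57. The lysosome list had 20 of 29 members above 0, a median of 0.20 and 5 members higher at an unadjusted p under 0.05. NEU1, a sialidase, had 1381 and 1251 against 1325 and 1388 in HL-60 and 563 and 402 against 981 and 1004 in THP-1, with 0.94 ± 0.23. CTSB, a cathepsin, had 0.64 ± 0.23 and TFEB, the regulator of lysosome genes, 0.71 ± 0.65, which were 0.37 and -0.08 without replicate 2.

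Cell death genes had a median of 0.35 that was 0.07 without replicate 2. TNFRSF21, a death receptor, had 852 and 939 against 1540 and 1577 in HL-60 and 22 and 44.9 against 341 and 244 in THP-1. It was higher with diclofenac in both lines, at least 2.64-fold in THP-1, where the controls were not above background, with a line difference of 1.27 ± 0.33 (limma adjusted p = 0.45) and 1.82 from a second probe set. BCL2A1, a survival protein, had 6511 and 6601 against 7315 and 7721 in HL-60 and 112 and 114 against 309 and 285 in THP-1, with 0.90 ± 0.15 (0.29). So 1 death receptor and 1 survival gene leaned the same way, from starts far lower in THP-1. The BH3-only gene BAD had 1.06 ± 0.82, which was -0.02 without replicate 2.

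Other lists leaned to HL-60. The ATF4 list, of amino acid response genes, had a median line difference of -0.11, and -0.22 without replicate 2. Only 10 of its 33 members were above 0, and at an unadjusted p under 0.05 there were 0 upward and 7 downward. Both lines had a positive median change, 0.38 in HL-60 and 0.20 in THP-1. CTH led the list. PSPH, the last enzyme of serine synthesis, had 553 and 560 against 752 and 679 in HL-60 and 927 and 986 against 666 and 624 in THP-1, apart in both lines and in opposite directions. Its line difference was -0.87 ± 0.20 (limma adjusted p = 0.41), but -0.01 from its second probe set. The secreted protein gene STC2 went the other way, with 1.06 ± 0.50.

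Cholesterol synthesis and uptake genes had 7 of 18 members above 0 and a median of -0.24, which was -0.30 without replicate 2. MSMO1, a sterol oxidase, had 486 and 513 against 833 and 986 in HL-60 and 1817 and 1906 against 1630 and 1438 in THP-1. The treatments were apart in both lines, and treated HL-60 stayed below THP-1. The line difference was -1.07 ± 0.19 (limma adjusted p = 0.29), the same without replicate 2. SREBF2, the sterol-sensing transcription factor, had -0.79 ± 0.47, and its other probe set 0.24. Without replicate 2 the SREBF2 probe sets had -0.69 and -0.52. MVD, another enzyme of the path, had 1.36 ± 0.53 from dim signals of 13.6 to 118, and was not above background in treated HL-60.

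Growth and housekeeping lists had small negative medians, and 2 of the directions depend on the scaling. DNA replication genes had -0.14, with 8 of 32 above 0 and 8 lower against 2 higher at an unadjusted p under 0.05, though relative to all genes the value was 0.04 without quantile normalization. CCNE1, the cyclin that opens DNA synthesis, had 398 and 478 against 492 and 493 in HL-60 and 686 and 738 against 342 and 417 in THP-1, with -0.99 ± 0.26 (limma adjusted p = 0.47). The polymerase genes POLE (1.04 ± 0.95) and POLA1 (1.04 ± 0.70) had -0.22 and 0.12 without replicate 2. Mitosis genes had -0.14, with 14 of 34 above 0. Respiratory chain genes had -0.12, and -0.18 without replicate 2, with 8 of 35 above 0, which was also above all genes (0.03) without quantile normalization.

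Within the respiratory chain, NDUFB7 of complex I had 4326 and 4863 against 5382 and 4607 in HL-60 and 252 and 121 against 690 and 686 in THP-1, with 1.58 ± 0.33 and -0.71 from its other probe set. COX7C had -0.66 ± 0.19, but its 2 other probe sets, which were brighter and may bind several transcripts, had 0.53 and -0.05. ATP5F1C had -1.02 ± 0.62, which was -0.45 without replicate 2, and its 3 other, much brighter probe sets had -0.21 to 0.04. Ribosomal protein genes, bright on every array, had -0.08, with 7 of 26 above 0 and 6 lower at an unadjusted p under 0.05. RPL35 had 9544 and 10150 against 11570 and 12000 in HL-60 and 11670 and 11430 against 9967 and 10950 in THP-1, apart in both lines, with -0.40 ± 0.10 (limma adjusted p = 0.43). RPL6 was likewise apart in both lines (-0.38 ± 0.11), whereas RPL22 (-0.38 ± 0.16) had 2812 and 2452 against 2729 and 2425 in THP-1, which overlapped.

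**Figure D5:**
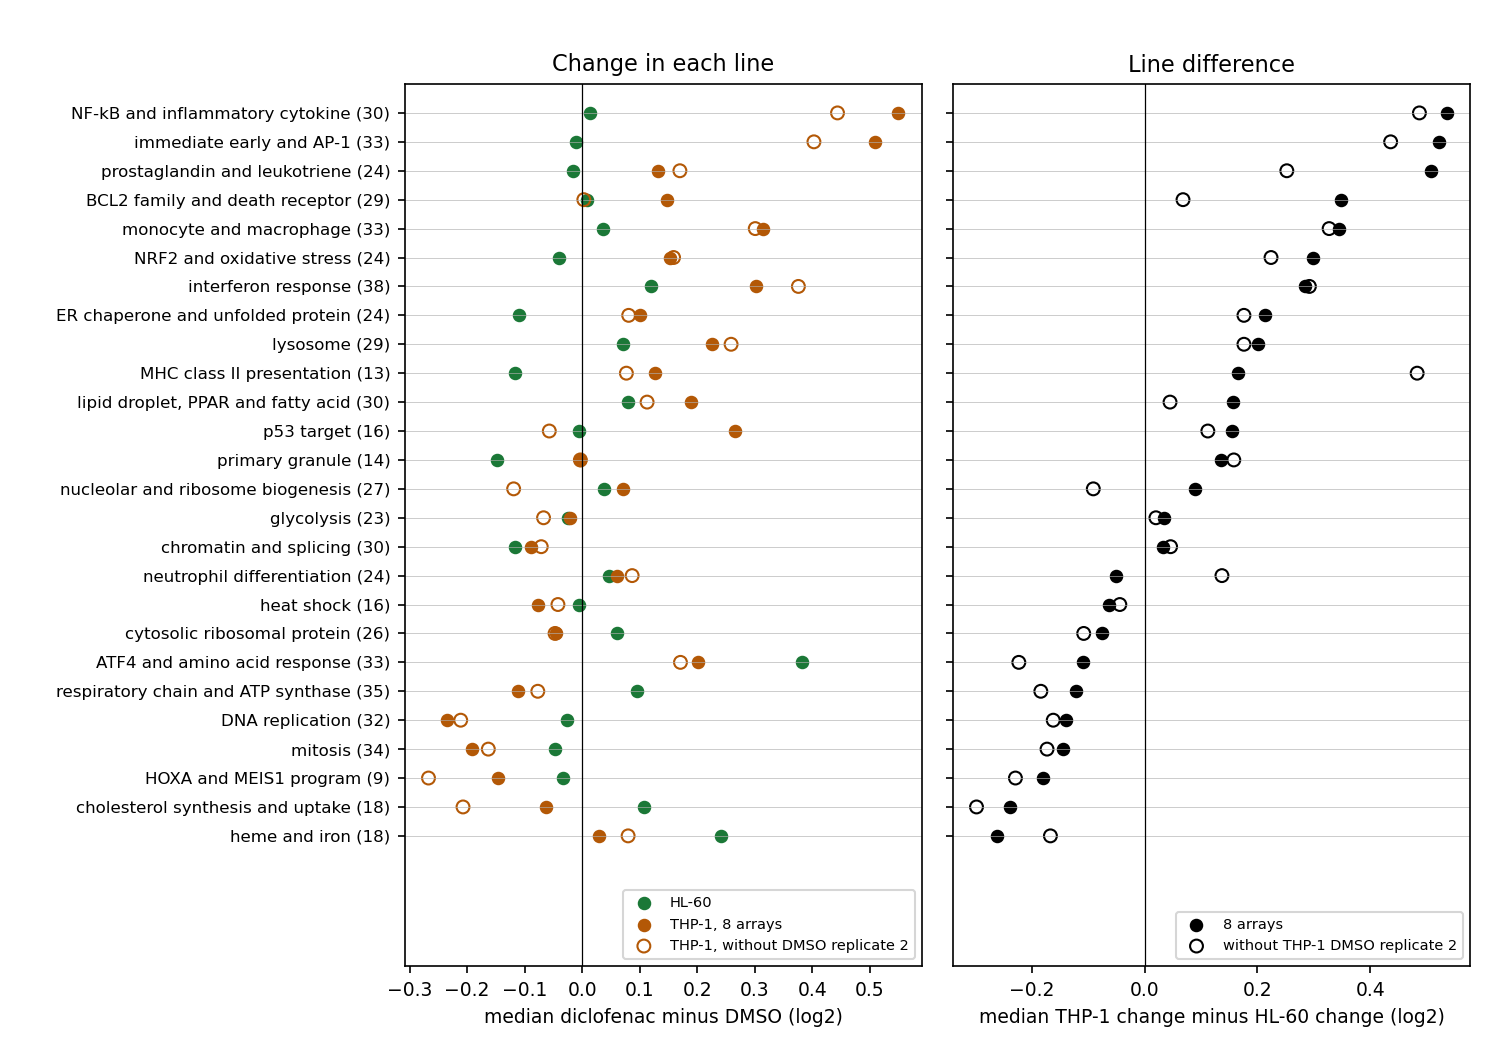
Median log2 change with diclofenac in HL-60 and THP-1 (left) and median line difference (right) of 26 gene lists, with the number of genes measured; open circles leave out THP-1 DMSO replicate 2. NF-kB and immediate early genes lie furthest right, 0.54 and 0.52, and heme and iron and cholesterol genes furthest left, -0.26 and -0.24.

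The remaining lists are given by count. MHC class II genes had a median line difference of 0.16, and 0.48 without replicate 2, with 10 of 13 above 0. The class II regulator gene CIITA had 187 and 177 against 90.9 and 81.3 in HL-60 and 50.9 and 51.8 against 82.2 and 66.7 in THP-1, with 1.06 ± 0.47. Endoplasmic reticulum chaperones had 0.21 (17 of 24), p53 targets 0.15 (12 of 16), glycolysis 0.03 (12 of 23), chromatin and splicing 0.03 (17 of 30), heat shock -0.06 (7 of 16), HOXA and MEIS1 genes -0.18 (1 of 9) and heme and iron genes -0.26 (5 of 18), which was -0.17 without replicate 2. Nucleolar genes turned direction, with 0.09 (18 of 27) and, without replicate 2, -0.09 (12 of 27). The line and myeloid markers had line differences from -0.80 ± 0.53 (FCGR1A, an IgG receptor, -0.39 without replicate 2) to 1.88 ± 0.57 (CD14), and none passed the test. HLA-DRA had 0.83 ± 0.45, the growth factor receptor gene CSF1R -0.60 ± 0.49 and the myeloid transcription factor gene SPI1 0.53 ± 0.69, which was -0.29 without replicate 2. MYC had -0.23 ± 0.15, PRTN3 0.21 ± 0.10 and CTSG -0.20 ± 0.09. MS4A3 had 0.17 ± 0.13, from changes of -0.66 in HL-60 and -0.50 in THP-1.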

How the data were processed

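Per the labels, total RNA became biotin-labelled cRNA on Affymetrix arrays, 1 per sample. The deposited intensity per probe set is linear, and the authors' arrays each had a trimmed mean of 500.11 to 500.18; the software is not given in the sources used here. Intensities plus 50 were turned to log2 and quantile normalized, since array medians ranged over 0.868 log2 units. A signal printed for an array is the normalised value without the 50, and log2 changes of dim genes are understated by it. Of 22277 probe sets 62 controls were left out. Platform annotation gave 1 symbol for 19064, several for 1043 and none for 2108. A gene is its brightest probe set (one that may bind several transcripts only for 460 genes).

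Group means were fitted with limma 3.58.1 (R 4.3.3; intensity trend, 4 residual and 4.41 prior degrees of freedom) and Benjamini-Hochberg adjusted over 22215 probe sets at 0.05. Errors are moderated standard errors. Without THP-1 DMSO replicate 2 the fit had 3 residual degrees of freedom, and its spread came from the other groups. Nothing beyond the titles says that arrays of a group came from separate cultures, so p-values measure the spread between these arrays. Same-numbered arrays deviated with correlations of -0.004 and -0.008, so the numbers were not used as pairs. Where a gene was above background on no array of a group, a change is a lower bound ("at least"): the brighter group's mean against, on each array of the dim group, the higher of the lowest signal above background and the gene's own.

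Up to 6 genes per class and direction, and up to 3 per list, were named by the largest line difference, with called genes and line markers. The members and lists were chosen with earlier results of these data known. Alternatives changed normalization, offset, filter, spread model, block, class sizes, probe set choice and arrays. The fit was tested on simulated data. Promoters matched RefSeq by symbol for 7611 of 9322 genes. Figures used matplotlib in Python, with versions 3.10.9 and 3.11.15.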

Additional observations from a re-analysis of the deposited data

Results flagged for a closer look

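These genes are listed because the test of the line difference passed with 8 arrays or with THP-1 DMSO replicate 2 left out, or as the opposite movers named above by size. In each line both diclofenac arrays of an opposite mover lay on the same side of both DMSO arrays. The line difference of 1 MTDH probe set passed with 8 arrays (1.79), and was 1.87 without THP-1 DMSO replicate 2. Those of DENND4B, ANXA1 and S100P did not pass with 8 arrays. They are listed from the fit without that array (2.93, 1.40 and 1.24), which has 1 THP-1 control and no spread between THP-1 controls.

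Among the genes that moved in opposite directions, the line difference did not pass the test, so for these the difference between lines is a matter of separated arrays. Higher in treated THP-1 and lower in treated HL-60 were APOE (2.83), POTEKP (2.83), ACSL4 (2.26), POMT2 (2.09), CYP27A1 (2.05) and VGF (1.87). Lower in treated THP-1 and higher in treated HL-60 were MAP2K6 (-2.30), ULK1 (-1.94), APBB1IP (-1.91), CCRL2 (-1.85), ID2B (-1.61) and WDR91 (-1.47). THP-1 DMSO replicate 2 was the extreme control for APOE, POTEKP, POMT2 and VGF, where it was the lower, and for MAP2K6, ULK1, APBB1IP, CCRL2 and ID2B, where it was the higher. Its part in these values was not tested beyond leaving it out.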

How the results depend on the processing

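Against 1 call of the line difference with all arrays there were 2 on the deposited scale, 0 under median centring, without the intensity trend, with array weights and with the replicate block, and 0 to 4036 with 1 array left out. The 4036 came without THP-1 DMSO replicate 1 and 4 without replicate 2. The 83 opposite genes became 159 with an offset of 16, 185 with none, 47 with the dimmest 40% left out, 2 at 1 log2 unit and 99 to 203 with 1 array left out. The 862 genes of THP-1 only became 215 at 1 log2 unit, 471 when not moved meant under 0.1, and 571 to 2395 with 1 array left out. The 210 of HL-60 only became 18, 103, 123 with the dimmest 40% left out, and 122 to 423. Among genes above background on all 8 arrays, a limit chosen after seeing the data, the 3 classes held 16, 405 and 66. With 1 array left out, the rule of separated arrays is looser in that line, so those counts are not made alike. The causes were not tested. The replicate block changed no other call. Of 26 lists 16 lay above all genes, and 15 to 19 under the alternatives, while all-gene medians of -0.096 and 0.096 came from the deposited scale and centring. Relative to all genes, 18 of the 26 lists kept 1 sign throughout. Those that did not included glycolysis (-0.035 to 0.062), heat shock (-0.127 to 0.086), HOXA and MEIS1 (-0.28 to 0.075) and chromatin and splicing (-0.001 to 0.222). Of 100 named probe sets 88 kept their sign throughout. The others were CEACAM1 (-0.575) and CTTN (-0.31) as means of their probe sets, MYC (0.079) and ELANE (0.109) under centring, and CD86 with no offset (0.067). With 1 array left out, CD86 ranged from -0.659 to 0.344, TFEB from -0.078 to 1.496, POLE from -0.217 to 2.285, BAD from -0.018 to 2.126, PTGIS from -2.082 to 0.003, SPI1 from -0.287 to 1.318, MEIS1 from -0.672 to 0.146 and MPO from -0.585 to 0.076. With 2 arrays per group, and dim genes near background, small differences were not detectable.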

Other observations

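Among the genes of lowest unadjusted p, with 8 arrays or without THP-1 DMSO replicate 2, several bright ones were in no list, and those given here were chosen after their values were seen. ASS1, which makes argininosuccinate on the way to arginine, had a signal of 1539 and 1698 with DMSO and 2777 and 3194 with diclofenac in HL-60, and of 5228 and 5584 against 4513 and 4260 in THP-1. The treatments were apart in both lines and in opposite directions, toward each other, with a line difference of -1.16 ± 0.14 (limma adjusted p = 0.12, and 0.082 without THP-1 DMSO replicate 2). MSN, moesin, which ties membrane to actin, went the other way: 9356 and 10540 against 7473 and 8725 in HL-60, and 2729 and 2236 against 5621 and 4489 in THP-1, with 1.31 ± 0.20. NPTN, an adhesion protein, had 9141 and 9486 against 8161 and 7614, and 4231 and 4050 against 5963 and 6193, with 0.79 ± 0.10.

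Several other such genes were high in HL-60 with either treatment and low in untreated THP-1. GPNMB, a glycoprotein of macrophages and lysosomes, had 9868 to 10320 on the 4 HL-60 arrays, and 281 and 246 against 614 and 713 in THP-1, with a line difference of 1.17 ± 0.15. The scavenger receptor CD36 had 3222 to 3793 in HL-60, and 112 and 171 against 366 and 358 in THP-1 (0.96 ± 0.23). LAP3, a leucine aminopeptidase, had 1860 to 2256 in HL-60, and 1028 and 1054 against 1964 and 2222 in THP-1 (1.14 ± 0.16), which there reached the HL-60 level. FCAR, the IgA receptor of myeloid cells, had 1288 and 1341 against 1004 and 1031 in HL-60 and 70 and 132 against 278 and 229 in THP-1 (1.39 ± 0.33), but 3 of its 4 other probe sets had the opposite sign. The adjusted p-values of these genes were 0.12 to 0.42 by limma with 8 arrays, and 0.067 to 0.084 for GPNMB, CD36, LAP3 and FCAR without THP-1 DMSO replicate 2. A pair of genes of RNA splicing and chromosome cohesion moved in opposite directions at high signal: SRSF11, a splicing factor, with 4845 and 6565 against 9917 and 8500 in HL-60 and 6257 and 6411 against 4282 and 3800 in THP-1, and NIPBL, which loads cohesin, with 859 and 983 against 514 and 464 and 811 and 715 against 1254 and 1129. Of the other probe sets, 1 of 2 for SRSF11 (0.11) and 1 of 3 for NIPBL (-0.09) had the opposite sign.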
